A study of Mus musculus with 3 samples.

Results

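Interferon-stimulated genes were followed through a single-cell RNA sequencing matrix of mouse brain. The set is a fixed list of 49 gene symbols, chosen by name with earlier results of these data known. The matrix held 48 of them among 31053 genes, and Mx2 was not analysed here. Together the 48 genes gave 1335309 of the unique molecular identifiers (UMIs, each standing for 1 captured RNA molecule) of the cells kept, which was 0.548% of all UMIs.

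Interferons are secreted proteins that warn cells of infection or damage. Type I interferons, such as the product of Ifnb1, bind a receptor made of Ifnar1 and Ifnar2, and the kinases Jak1 and Tyk2 then activate transcription factors. A complex that holds Stat2 and Irf9 binds the interferon-stimulated response element (ISRE), a short DNA motif near the start of many target genes, while interferon gamma, made mainly by T and NK cells, acts on another motif, the GAS element. The targets include proteins that bind foreign RNA or DNA, block the entry, copying or release of viruses, and tune the response itself. In the brain, microglia, infiltrating leukocytes, the vasculature and white matter glia are all known to be able to carry this response.

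The cells came from brain tissue of C56BL6 mice (strain as labelled) aged 10 weeks in 3 conditions: control, Ischemic Stroke (IS) and Hemorrhagic Stroke (HS). Each condition gave 1 library from pooled mice, so there were no replicates. In the methods of the study, the ischemic model closed the middle cerebral artery with a suture that was later withdrawn, and the hemorrhagic model injected collagenase into the right striatum. These are models of a reopened vessel and of an enzyme-induced bleed. The labels do not give the time after surgery. The deposited matrix tells the libraries apart only by a barcode suffix of 1, 2 or 3, and no source used here pairs a suffix with a condition. They are called libraries 1, 2 and 3 below, and no value is assigned to control or to a form of stroke.

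Of 35968 barcodes, 31982 had at least 1000 UMIs and at most 30% mitochondrial UMIs, and libraries 1, 2 and 3 kept 8969, 13769 and 9244 of them. Their median depths were 6389, 5801 and 6287.5 UMIs. There were 110 barcode sequences that occurred under more than 1 suffix, on 200 of the kept barcodes. Cells were classed by raw UMIs of marker genes that are not on the list, with thresholds set after the counts had been seen, and 83.3% fell into a class. Since the gates picked cells by these markers, a high rank of the markers was favoured by the gating and does not test the classes. In 13 of the 14 classes of at least 50 cells, 2 to 4 of the class's own markers were among the 10 genes with the highest fold over the other cells. The exception was the neuron-like class of 83 cells, led by Avp, Scg2 and Snhg11, and the T-cell-like class also had the monocyte marker Ly6c2 among its 10. A further 2241 cells passed the gates of several classes and 3089 passed none, and both were left out of the classes. The classes were spread unevenly: 1019 of 1041 endothelial-like, 173 of 186 mural cell-like and 152 of 189 border macrophage-like cells were in library 3, which held 23 of 2427 T-cell-like cells.

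The letters that the interferon-activated complex binds stand close to the start of many of these genes, and promoters that hold them are shown for that reason. The RefSeq promoter table (GRCm38.p6, 250 bases before to 50 after each gene's start) held 37 of the 48 members. The ISRE core searched was GAAANNGAAA, or TTTCNNTTTC on the opposite strand, with overlapping matches counted. It was present in 19 of these 37 members (51.4%) and in 3.99% of 27025 genes in the table. The core of the GAS element, TTCNNNGAA, which reads the same on both strands, was present in 6 of 37 members (16.2%) and in 9.55% of all genes. Ahead of the start, 17 members held 26 matches in all, 12 to 188 bases before it with a median of 74, and the same match in Slfn8 was counted from both of its listed starts. Shown are the 4 members with the most UMIs among those with a core before the start. The 250 bases before the start of Isg15 (a ubiquitin-like modifier), Ifit1 (a binder of foreign RNA), Bst2 (tetherin, which holds budding virus on the cell) and Rsad2 (viperin, an enzyme that makes a chain-ending nucleotide) read as follows, 5′ to 3′ on the strand of the gene, with the ISRE cores in capitals.
Isg15, chr4:156200819-156201068, minus strand: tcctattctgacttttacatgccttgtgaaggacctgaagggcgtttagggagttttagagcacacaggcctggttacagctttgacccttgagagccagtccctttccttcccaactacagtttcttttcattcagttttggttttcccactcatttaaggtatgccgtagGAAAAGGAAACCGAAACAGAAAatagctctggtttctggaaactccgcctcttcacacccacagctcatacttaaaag
Ifit1, chr19:34640639-34640888, plus strand: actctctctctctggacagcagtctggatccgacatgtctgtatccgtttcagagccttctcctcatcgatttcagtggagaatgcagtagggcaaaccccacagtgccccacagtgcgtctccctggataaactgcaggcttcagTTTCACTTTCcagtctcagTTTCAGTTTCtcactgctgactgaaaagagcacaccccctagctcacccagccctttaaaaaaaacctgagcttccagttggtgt
Bst2, chr8:71537473-71537722, minus strand: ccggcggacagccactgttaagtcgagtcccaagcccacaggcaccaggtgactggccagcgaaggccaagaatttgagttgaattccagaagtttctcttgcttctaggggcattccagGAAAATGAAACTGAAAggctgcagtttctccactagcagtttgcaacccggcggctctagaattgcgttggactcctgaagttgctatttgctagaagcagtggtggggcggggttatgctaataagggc
Rsad2, chr12:26456453-26456702, minus strand: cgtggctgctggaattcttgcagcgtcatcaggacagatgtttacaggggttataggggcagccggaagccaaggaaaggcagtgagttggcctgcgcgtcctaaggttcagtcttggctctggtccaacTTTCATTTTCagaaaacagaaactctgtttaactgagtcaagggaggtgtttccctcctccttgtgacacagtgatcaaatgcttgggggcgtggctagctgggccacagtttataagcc

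In Isg15, 3 cores overlapped in 1 run that began 78 bases before the start. Ifit1 and Bst2 held 2 each, and Rsad2 held 1. A match is a description of the letters and does not show that a factor binds there. The paralogs are shown next because their sites are alike, each with 8 bases on either side where the window allowed. Ifi203, Ifi207, Ifi211 and Ifi213 belong to the PYHIN family of DNA-binding proteins, whose genes cluster on chromosome 1. Both sites of Ifit3 and Ifit3b are shown in their order along the gene, and Oas1a and Oas1g encode oligoadenylate synthetases, which sense double-stranded RNA, and each hold 2 overlapping cores.
Ifi203, chr1:173942510-173942535, minus strand: gagctgggGAAATCGAAAgctatgaa
Ifi207, chr1:173741833-173741858, minus strand: tagccaggGAAATCGAAAattaagaa
Ifi211, chr1:173913066-173913091, minus strand: aagccaggGAAATTGAAAgctatgaa
Ifi213, chr1:173599328-173599353, minus strand: tctctgagGAAATCGAAAgctatgaa
Ifit3, chr19:34583365-34583390, plus strand: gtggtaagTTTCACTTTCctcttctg
Ifit3b, chr19:34607761-34607786, plus strand: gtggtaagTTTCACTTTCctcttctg
Ifit3, chr19:34583399-34583424, plus strand: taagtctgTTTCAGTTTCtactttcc
Ifit3b, chr19:34607795-34607820, plus strand: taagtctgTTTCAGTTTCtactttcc
Oas1a, chr5:120907528-120907553, minus strand: cttctcggGAAATGGAAACTGAAAat
Oas1g, chr5:120887614-120887639, minus strand: cttctcggGAAATGGAAACTGAAAat

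The printed stretches of Ifit3 and Ifit3b were identical, as were those of Oas1a and Oas1g. No promoter entry was found for Ifi27l2a, Ifi27, Ifi204, Rtp4, Mx1, Parp14, Zbp1, Usp18, Parp9, Dhx58 and Oas2.

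Pooled over libraries, the members' share of UMIs was highest in neutrophil-like, monocyte/dendritic-like and microglia-like cells and lowest in neuron-like and neuroblast-like cells. With the libraries pooled, it was 1.16% (exact Poisson 95% interval 1.14 to 1.18) in 316 neutrophil-like cells, 1.03% (1.01 to 1.05) in 114 monocyte/dendritic-like cells and 0.936% (0.934 to 0.938) in 10001 microglia-like cells. T-cell-like cells followed at 0.673% and border macrophage-like cells at 0.627%. The intervals cover counting error only and leave out the spread between cells. No class has replicate libraries of a condition. Endothelial-like cells reached 0.436%, choroid plexus-like cells 0.351%, NK-cell-like cells 0.269%, oligodendrocyte precursor-like cells 0.206% and mural cell-like cells 0.157%. The lowest shares were 0.0916% in 9035 oligodendrocyte-like, 0.0816% in astrocyte-like, 0.0439% in neuroblast-like and 0.0218% in neuron-like cells. The pooled order mixes libraries that hold the classes in unequal parts. In library 1, 19 border macrophage-like cells held 1.12%, against 0.850% in microglia-like cells. In library 2, 18 border macrophage-like cells held 1.27%, against 1.15% in microglia-like cells. Neutrophil-like cells held 1.27% in 227 cells of library 1. In library 2 the 67 neutrophil-like cells held 0.977%, below microglia-like cells and the 1.19% of 54 monocyte/dendritic-like cells. Within library 3 alone, border macrophage-like cells (0.447%, 0.434 to 0.460) and endothelial-like cells (0.434%, 0.430 to 0.438) both lay above microglia-like cells (0.274%, 0.272 to 0.277). The intervals of the first pair overlapped, and both stood clear of the third.

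**Figure D1:**
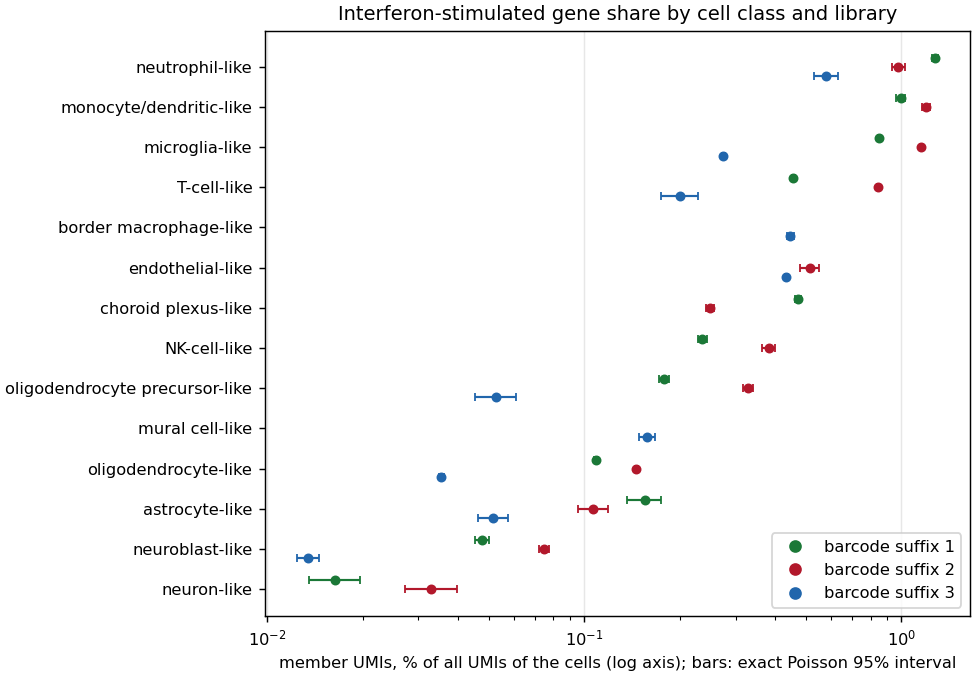
Share of the 48 interferon-stimulated genes among all UMIs of the cells of a class (percent, log axis), for each library with at least 20 cells in the class; bars are exact Poisson 95% intervals. Library 3 lies lowest in microglia-like cells (0.274% against 0.850% and 1.15%) and in every other class with a point for all 3 libraries.

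Few genes carried most of the UMIs. Isg15 alone gave 198675 UMIs (14.9% of the total of all members), followed by Ifi27l2a with 172051, Ifit1 with 116434, Ifitm3 with 98883 and Bst2 with 94343. These 5 made up 51.0% of the total, and with Ifit2, Rsad2, Ifit3, Ifi27 and Lgals3bp the leading 10 made up 74.6%. At the other end, Oas1g had 587 UMIs and Oas2 had 686. Isg15 lies at chr4:156199424-156200818 on the minus strand, Ifi27 at chr12:103434211-103440239 and Ifi27l2a close by at chr12:103442167-103443680 (GRCm38, GENCODE vM21). All 48 members matched that annotation.

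The IFIT proteins bind RNA that lacks the marks of the cell's own messengers, and the messengers of their genes were high in microglia-like cells. Levels are given as counts per 1000000 UMIs of a class (CPM), and each UMI comes from the 3′ end of a messenger, so they do not scale with gene length. Together Ifit1, Ifit2, Ifit3 and Ifit3b reached 2418 CPM in microglia-like cells, and the next class, border macrophage-like cells, had 676 CPM. Ifit1 stood at 967 CPM in microglia-like cells and 354 CPM in border macrophage-like cells, and Ifit2 at 791 and 204 CPM. The pooled border values rest on library 3, which held 152 of the 189 cells. Without library 3, an alternative chosen after seeing the data, the 37 border macrophage-like cells had 2222 CPM of the 4 genes together (2064 to 2388) against 2644 CPM in microglia-like cells (2633 to 2656). Ifit1 was then at 1093 CPM (983 to 1211) in border macrophage-like and 1021 CPM (1014 to 1029) in microglia-like cells, with overlapping intervals. All 4 had their highest pooled level in microglia-like cells, and also their highest level within each of libraries 1, 2 and 3 among classes of at least 50 cells, which leaves out the border macrophage-like cells of libraries 1 and 2.

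In the ISG15 system, Isg15 and Herc6 had their highest pooled levels in microglia-like cells and the other 3 members in neutrophil-like cells. Isg15 was at 1676 CPM in microglia-like cells and 656 CPM in neutrophil-like cells, the second class when pooled. The 5 genes together were at 530 CPM in pooled border macrophage-like cells and 233 CPM in those of library 3, which held 152 of the 189 cells. The pooled border level is thus weighted to library 3, and Isg15 without that library is not reported here. Usp18, the protease that removes ISG15, was highest in neutrophil-like cells at 39.3 CPM with an interval (28.3 to 53.2) that overlapped that of oligodendrocyte precursor-like cells (31.2 CPM, 24.9 to 38.6). Herc6, the mouse ligase that attaches it, reached 47.4 CPM in microglia-like and 39.9 CPM in T-cell-like cells. Trim30a, a ligase that restrains inflammatory signalling, was at 229 CPM in neutrophil-like and 94.5 CPM in monocyte/dendritic-like cells. Trim25, a ligase that activates the RNA sensor RIG-I, was at 131 CPM in neutrophil-like and 101 CPM in monocyte/dendritic-like cells, and these intervals overlapped.

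Among the genes that block virus entry, budding or copying, the cell type differed from gene to gene. Ifitm3, which stops virus from fusing with endosomes, reached 3607 CPM in monocyte/dendritic-like cells, 2391 CPM in endothelial-like cells and 2178 CPM in neutrophil-like cells, against 483 CPM in microglia-like cells. It alone gave 54.9% of the UMIs of all members in endothelial-like cells and 52.9% in mural cell-like cells. Bst2 was more even, at 851 CPM in border macrophage-like cells, 780 CPM in monocyte/dendritic-like cells and 673 CPM in microglia-like cells. Rsad2 was highest in neutrophil-like cells at 651 CPM and in microglia-like cells at 546 CPM. Mx1, a dynamin-like GTPase, was highest in microglia-like cells at 113 CPM, with 37.1 CPM in T-cell-like cells as the next pooled class. Samd9l, a restriction factor for poxviruses, reached 180 CPM in neutrophil-like cells, and Cmpk2, a nucleotide kinase encoded beside Rsad2, was near 23.3 CPM in microglia-like and 23.0 CPM in oligodendrocyte precursor-like cells.

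The leading classes of the sensors and nucleic acid-binding families were not the same for all genes. Of the PYHIN family, Ifi207 was highest in border macrophage-like cells at 581 CPM, and Ifi204 stood at 212 CPM in neutrophil-like, 203 CPM in border macrophage-like and 11.5 CPM in T-cell-like cells. Ifi203, Ifi209 and Ifi213 were instead highest in T-cell-like cells, at 262, 106 and 72.4 CPM. Ifi203 also reached 226 CPM in border macrophage-like cells, while microglia-like cells held less than 5 CPM of it in each library. Oasl1, which holds back translation of Irf7, was the most abundant member of the OAS family, at 200 CPM in monocyte/dendritic-like and 158 CPM in microglia-like cells. Oas3 reached 95.5 CPM in neutrophil-like cells, against 23.9 CPM in the next class. Zbp1, a sensor of left-handed double helices that can trigger necroptosis, was at 161 CPM in neutrophil-like and 130 CPM in T-cell-like cells. Eif2ak2, the kinase PKR that halts translation, and Dhx58 and Znfx1, which are RNA helicase family proteins, stayed below 40 CPM in each pooled class, and their highest and second classes had overlapping intervals.

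The remaining families had their own seats. Slfn2, a Schlafen protein that protects transfer RNA in dividing leukocytes, was at 1683 CPM in neutrophil-like cells and 101 CPM in the other cells. Slfn5 was instead highest in endothelial-like cells at 325 CPM, against 36.0 CPM in the other cells. Ifi27 and Ifi27l2a encode small hydrophobic proteins of mitochondrial and nuclear membranes and are neighbours in the genome, yet their classes differed. Pooled, Ifi27l2a led in neutrophil-like cells at 2967 CPM and T-cell-like cells at 2549 CPM, where it gave 37.9% of the UMIs of all members. In library 1 it was at 3658 CPM in neutrophil-like and 1705 CPM in T-cell-like cells. In library 2 the order was reversed, at 1062 and 3231 CPM. Ifi27, pooled, led in choroid plexus-like cells at 1899 CPM and oligodendrocyte precursor-like cells at 856 CPM. It gave 54.1% and 41.5% of the UMIs of the members there. Xaf1, which antagonizes an inhibitor of apoptosis, was the single member with its highest level in oligodendrocyte-like cells, at 118 CPM. Lgals3bp, a secreted glycoprotein that binds galectins, was highest when pooled in microglia-like cells at 402 CPM, with 136 CPM in choroid plexus-like cells. Within library 3 its highest level was in border macrophage-like cells. Rtp4, a chaperone of membrane receptors, was at 273 CPM in neutrophil-like and 108 CPM in microglia-like cells.

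Parp14 and Parp9, which attach ADP-ribose to proteins, and Dtx3l, the ligase that pairs with Parp9, were summed as well. Their sum was 142 CPM in microglia-like, 141 CPM in monocyte/dendritic-like, 129 CPM in T-cell-like and 128 CPM in neutrophil-like cells, and it was lower in border macrophage-like cells (115 CPM) and NK-cell-like cells (75.7 CPM). Of the nuclear factors, Sp100, a component of nuclear bodies, was highest in T-cell-like cells at 150 CPM, and Phf11b was highest in monocyte/dendritic-like cells at 141 CPM. Irf9 stayed near 51.5 CPM in neutrophil-like and 46.3 CPM in endothelial-like cells. Over all members, the highest pooled level was in neutrophil-like cells for 17, microglia-like cells for 12, monocyte/dendritic-like cells for 7, T-cell-like cells for 4 and border macrophage-like cells for 3. NK-cell-like, oligodendrocyte-like, oligodendrocyte precursor-like, endothelial-like and choroid plexus-like cells each held 1, namely Ifi44, Xaf1, Eif2ak2, Slfn5 and Ifi27. Within a library, only classes of at least 50 cells were ranked. In library 1, neutrophil-like cells held the highest level of 20 members and microglia-like cells 15. In library 2, neutrophil-like cells held 13, and microglia-like and monocyte/dendritic-like cells 11 each. In library 3, where neutrophil-like cells were under 50, border macrophage-like cells held the highest level of 21 members, endothelial-like cells 13 and microglia-like cells 12. No share over all genes was set beside these counts.

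**Figure D2:**
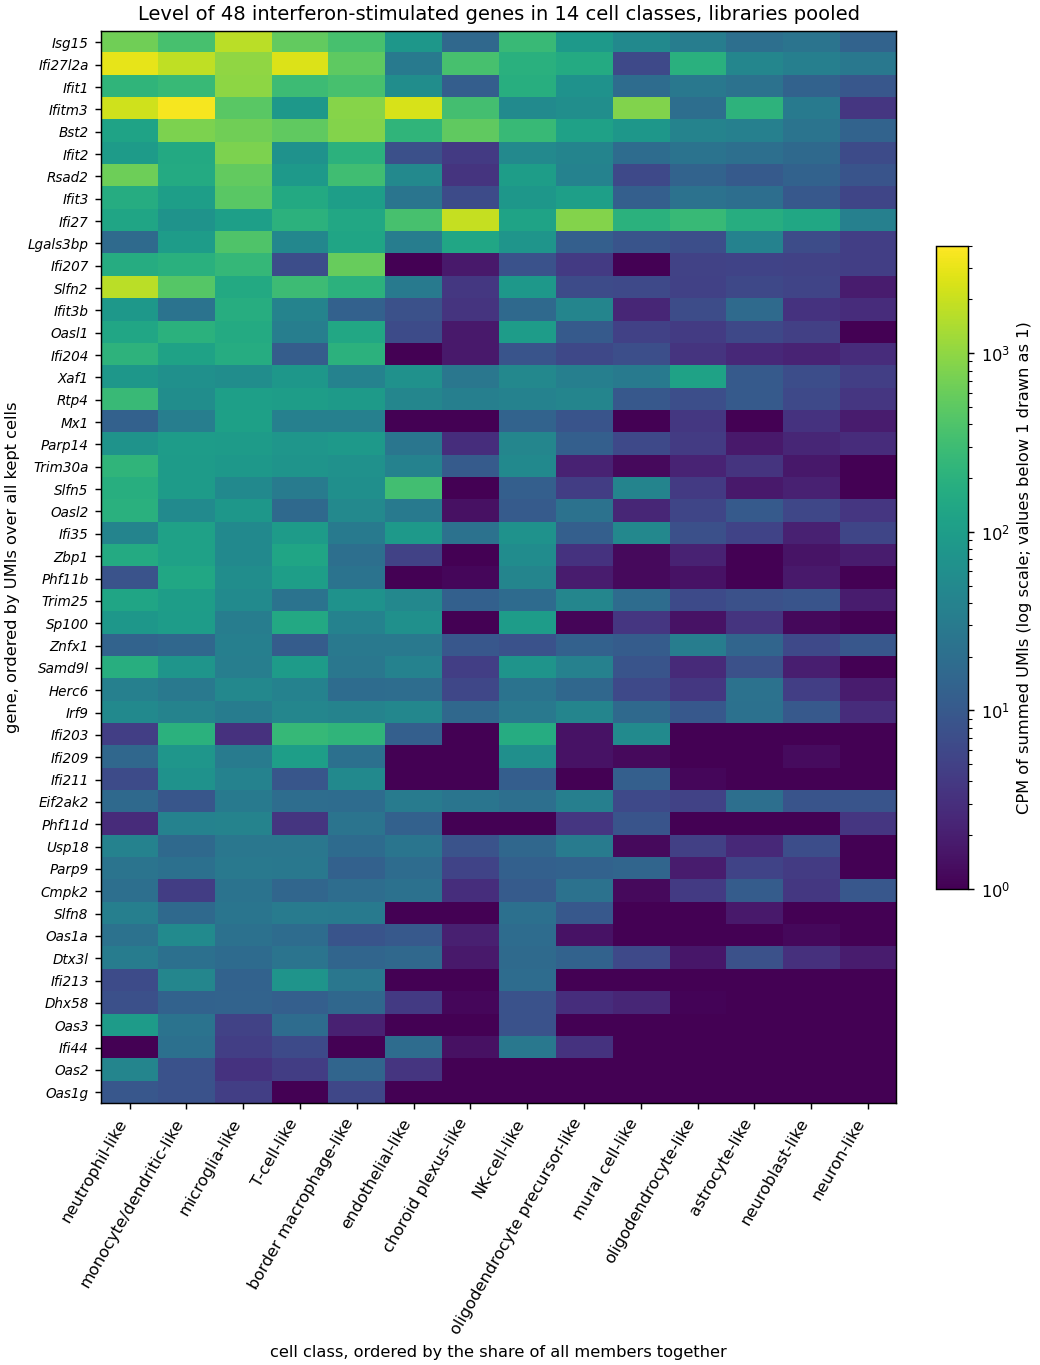
Level of each of the 48 genes (rows, ordered by UMIs) in 14 cell classes (columns, ordered by the share of all members together), libraries pooled, as CPM on a log colour scale with values below 1 drawn as 1. The IFIT genes are brightest in microglia-like cells, Ifi27 in choroid plexus-like cells (1899 CPM) and Slfn5 in endothelial-like cells (325 CPM).

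Microglia-like and T-cell-like cells, the largest immune classes, were compared gene by gene. Pooled, 18 of 48 members were at least 2-fold higher in microglia-like cells, where 24.8% of all 14071 genes with at least 20 UMIs in the 2 classes together were. Another 8 were at least 2-fold lower, where 18.2% of all genes were. The median log2 ratio was 0.23 over the members and 0.03 over all genes tested. The genes higher in microglia-like cells included all 4 IFIT genes, Isg15 (3.03-fold, interval 2.96 to 3.1004), Rsad2 (6.16-fold), Lgals3bp (8.55-fold), Ifi204 (14.8-fold) and Ifi207 (34.9-fold, 28.5 to 43.2). The 8 that were lower were Ifi27l2a, Oas3, Ifi203, Ifi209, Ifi213, Zbp1, Samd9l and Sp100. Within library 1 the counts were 21 (background 23.6%) and 7 (20.2%), and within library 2 they were 18 (23%) and 9 (20.9%). Ifi27l2a passed 2-fold in library 2 and pooled, and not in library 1.

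In microglia-like cells, the class with the most UMIs, most members were highest in library 2 and lowest in library 3. Isg15 was at 1182 CPM in library 1, 2233 CPM in library 2 and 556 CPM in library 3. Ifi27l2a was at 1008, 1244 and 22.04 CPM in the same order. Rsad2 was at 495, 699 and 44.9 CPM. Library 2 was highest and library 3 lowest for each of these genes, and no pair of exact Poisson intervals overlapped. Ifitm3 stood at 474, 599 and 35.6 CPM, Bst2 at 659, 811 and 152 CPM, and Ifit2 at 736, 967 and 211 CPM. Lgals3bp was at 461, 455 and 53.4 CPM, which puts libraries 1 and 2 level and library 3 far below. Over the 48 members, library 2 was highest for 41 and library 3 was lowest for 42. The share of all genes with these ranks is not reported here, so these counts are a description.

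As a share of all UMIs, the members took 0.850% in library 1, 1.15% in library 2 and 0.274% in library 3 of microglia-like cells (2950, 5135 and 1916 cells). Library 1 was 3.096-fold library 3 (interval 3.06 to 3.13), library 2 was 4.19-fold library 3 (4.15 to 4.24), and library 2 was 1.35-fold library 1. At least 2-fold higher in library 1 than in library 3 were 33 of 48 members, where 5.71% of 12561 genes were, and no member was 2-fold lower, where 25.5% were. In library 2 over library 3 the counts were 37 of 48 (background 6.79%) and no member (background 29%). Some members, such as Oas3, Oas1g, Oas2 and Ifi211, had 3 UMIs or fewer in library 3. They entered through the other library, so these counts are a description. The median log2 ratio over all genes was -0.57 in the first comparison and -0.60 in the second, so a typical gene was lower in CPM than in library 3, and the medians of the members were 1.89 and 2.33. A member with a level CPM in all 3 libraries therefore still lay above the median gene. Library 2 over library 1 gave 2 members at 2-fold or more, Ifi211 and Ifi213, where 1.64% of genes were, and none lower (background 1.14%). With 1 library each, these are differences between libraries and not a test of conditions. Library 3 also had the fewest UMIs per microglia-like cell, with a median of 6529.5 against 8039 and 8598, and 3.02% mitochondrial UMIs against 2.26% and 2.15%, and the part of this in the result was not tested.

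The members did not differ as a block. The counts that follow are of members only, and the like shares over all genes are not reported here. In both libraries 1 and 2, 13 members were at least 10-fold above library 3: Ifi27l2a, Ifitm3, Rsad2, Zbp1, Oasl2, the PYHIN members Ifi207, Ifi211 and Ifi213, the synthetases Oas1a, Oas1g, Oas2 and Oas3, and Ifi44. Ifi27l2a reached 45.7-fold in library 1 (40.7 to 51.6) and 56.4-fold in library 2 (50.2 to 63.7). Ifi211 had 3 UMIs in library 3, so its ratios of 112 (38.2 to 544) and 245 (83.8 to 1189) are wide. Oas1g, Oas2 and Ifi44 had 2, 3 and 5 UMIs there. Oas3 had no UMI in library 3, and against the limit of 3 UMIs it was at least 16.8-fold higher in library 1 and at least 30.3-fold higher in library 2. In contrast, 9 members stayed within 1.5-fold in both: Ifi27, Parp14, Parp9, Dtx3l, Ifi35, Znfx1, Herc6, Irf9 and Slfn8. Parp14 was at 91.8, 96.9 and 96.9 CPM and Ifi27 at 96.0, 113 and 120 CPM in libraries 1, 2 and 3. The IFIT genes and Isg15 lay between. Library 3 kept 622 CPM of Ifit1 against 848 and 1119 CPM, ratios of 1.36 and 1.80. Isg15, Ifit2, Ifit3 and Ifit3b were at least 2-fold higher in both libraries 1 and 2. The IFIT genes were 36.3% of the UMIs of all members in library 3, against 25.6% and 25.3%, while Ifi27 and Ifi27l2a together were 5.18% against 12.99% and 11.8%.

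**Figure D3:**
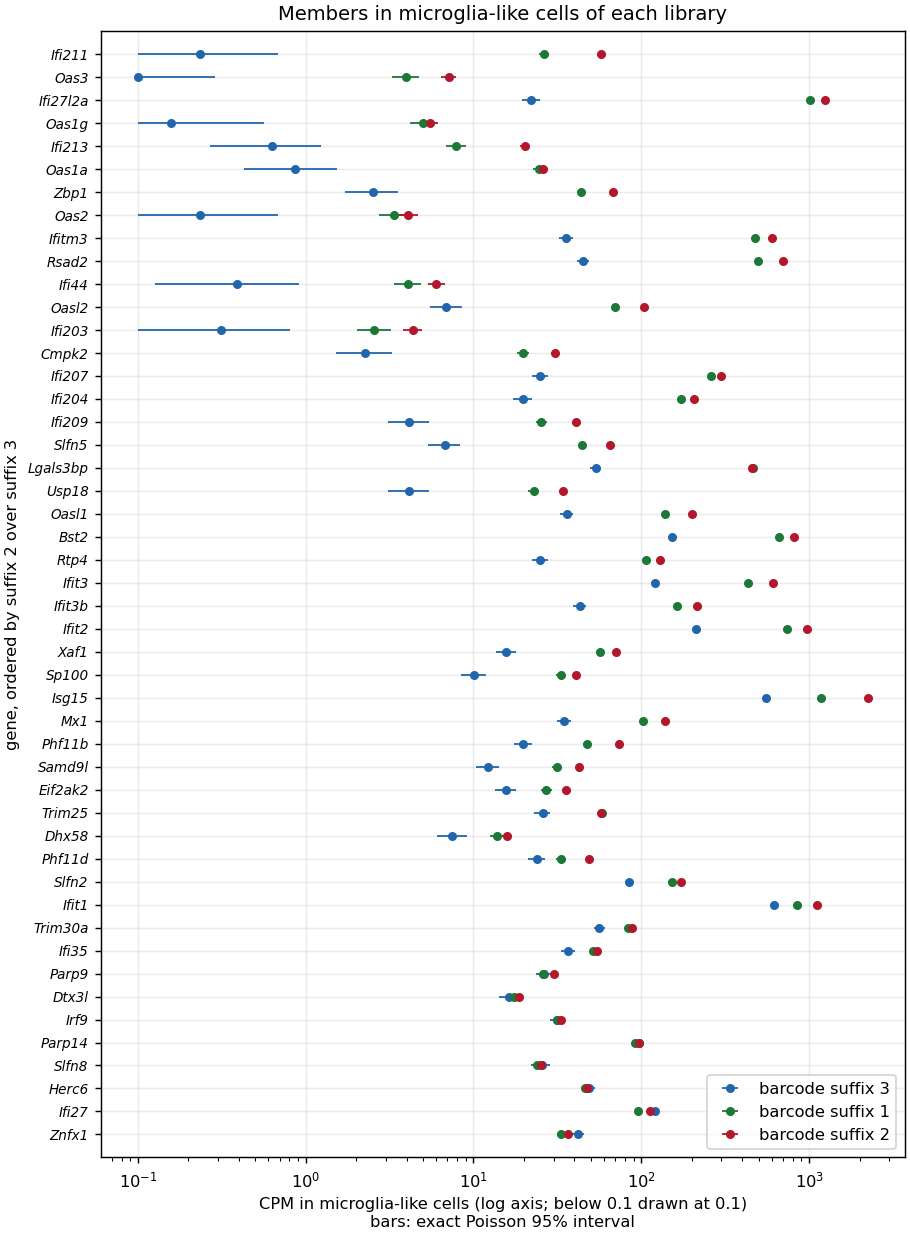
CPM of each member in microglia-like cells of libraries 1, 2 and 3 (log axis, values below 0.1 drawn at 0.1), with genes ordered by library 2 over library 3 and bars giving exact Poisson 95% intervals. Ifi27l2a is at 22.04 CPM in library 3 and above 1000 CPM in the others, and Znfx1, Ifi27 and Herc6, the lowest 3, hold like levels in all libraries.

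The ISRE core and the size of the difference can be set side by side for the 37 members with a promoter entry. Of the 19 with a core, 15 were at least 2-fold higher in library 1 than in library 3, with a median ratio of 6.61, and 16 in library 2, with a median ratio of 9.67. Of the 18 without it, 11 were so in library 1 (median 2.94) and 13 in library 2 (median 3.79). Of the 11 members with no promoter entry, 7 were so in library 1 (median 4.25) and 8 in library 2 (median 5.17). Members with a core ranged from Slfn8 at 0.932 to Ifi211 at 112 in library 1. Ifi211, Oas3 and Oas1g hold a core and had 3 UMIs or fewer in library 3. Several members with a core are paralogs with like sites. Whether the core bears on the difference was not tested.

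Cell by cell, the members were seen in most microglia-like cells of libraries 1 and 2. Each cell was thinned to 1000 UMIs so that depth did not enter. No member UMI was left in 2.20% of microglia-like cells in library 1 and 1.83% in library 2, against 20.6% in library 3. At most 10 member UMIs were left in 74.98% of the cells in library 1, 59.9% in library 2 and 97.5% in library 3. An Isg15 UMI was present, before thinning, in 82.0%, 90.1% and 71.7% of microglia-like cells, against 12.5% and 19.2% of neuron-like cells in libraries 1 and 2, which had more UMIs per cell (medians 12024 and 12236.5). Of T-cell-like cells, 8.69% in library 1, 2.75% in library 2 and 26.1% of 23 cells in library 3 kept no member UMI.

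**Figure D4:**
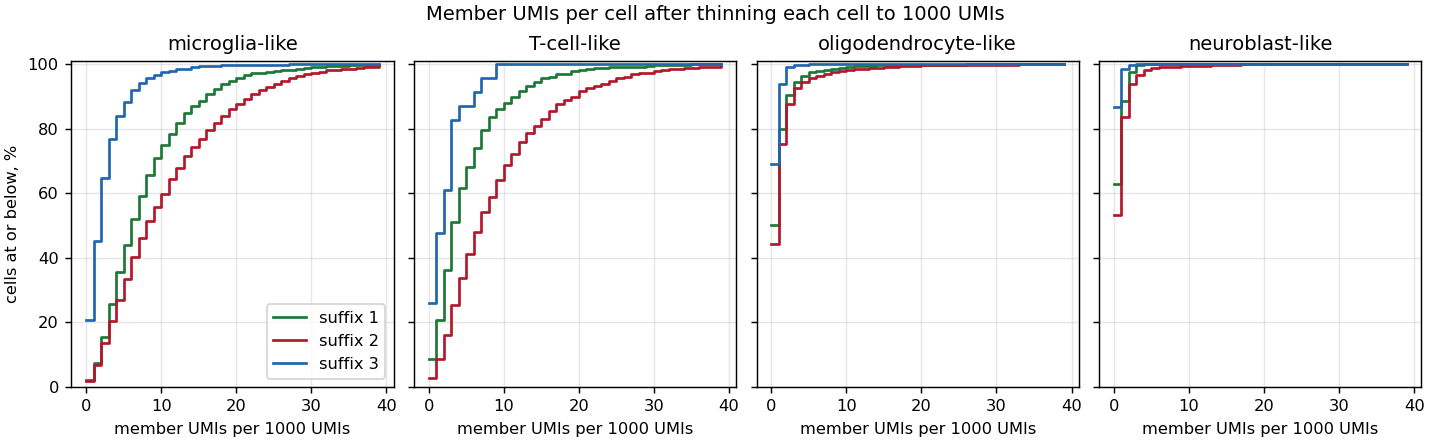
Cumulative share of cells (percent) by the number of member UMIs left after each cell was thinned to 1000 UMIs, for 4 classes and 3 libraries. In microglia-like cells library 3 rises first (20.6% of cells at 0) and library 2 last, and in oligodendrocyte-like and neuroblast-like cells each curve starts above 44% at 0.

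Within a library, some members moved together from cell to cell. After thinning, the correlation across microglia-like cells between Ifit1 and the sum of the other members was 0.47, 0.44 and 0.44 in libraries 1, 2 and 3 (2950, 5135 and 1916 cells, which share a library and a fixed depth). Isg15 gave 0.41, 0.47 and 0.29, and Ifit3 gave 0.47 and 0.49 in libraries 1 and 2. Ifi27 was near 0, at -0.06 in library 2 and 0.03 in library 3, and Slfn2 gave 0.03 and 0.11 in libraries 1 and 2. Ifi27l2a gave 0.14 and 0.18 and Lgals3bp 0.12 and 0.13 in libraries 1 and 2, and Bst2 gave 0.13, 0.21 and 0.05 in libraries 1, 2 and 3. Ifi27 thus differed from the IFIT genes within microglia-like cells. Ifi27l2a had low correlations too, though its level differed widely between libraries. The members also differ in UMIs per thinned cell, and the part of this in the correlations was not tested. The correlations describe cells of a given library and are not replicated.

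Ifnb1, the gene of interferon beta, was itself read in microglia-like cells, at 2298 CPM pooled and at 2372, 2504 and 1305 CPM in libraries 1, 2 and 3. Border macrophage-like cells came next at 479 CPM. Whether these reads came from the Ifnb1 messenger itself was not tested. Microglia-like cells with an Ifnb1 UMI held 0.945%, 1.24% and 0.322% of their UMIs in members, and those without held 0.473%, 0.614% and 0.137%. The cells with it were also deeper, with medians of 8400 against 5840 UMIs in library 1, 9057.5 against 6299 in library 2 and 6984 against 5506 in library 3. After thinning, the means were 8.73 against 4.77 member UMIs per cell in library 1, 11.5 against 5.73 in library 2 and 3.07 against 1.33 in library 3. The cells with an Ifnb1 UMI were higher in every library on both scales. Whether a cell has an Ifnb1 UMI still depends on its depth, and that part was not tested.

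Other genes of the pathway, which are not members, were read in the same cells. Irf7, a transcription factor that feeds the response forward, was at 102, 160 and 41.2 CPM in microglia-like cells of libraries 1, 2 and 3. It was lowest in library 3, as most members were. Irf1 (66.7, 87.5 and 181 CPM), Socs1, a feedback inhibitor (17.6, 22.2 and 41.6 CPM), and Jak1 (159, 160 and 252 CPM) were highest in library 3 instead. The median gene of microglia-like cells was also higher there, with log2 ratios of -0.57 and -0.60 for libraries 1 and 2 over library 3. At least 2-fold lower than in library 3 were 25.5% of genes in library 1 and 29% in library 2. Whether Irf1, Socs1 and Jak1 exceed that shift was not tested. Ifnar2 was at 171, 190 and 131 CPM and Ifnar1 at 26.3, 20.7 and 26.3 CPM. Ifng, the gene of interferon gamma, was found in lymphocytes, at 649 CPM in T-cell-like and 537 CPM in NK-cell-like cells, and in T-cell-like cells of libraries 1 and 2 it stood at 403 and 845 CPM. Stat2, Irf3 and Tyk2 stayed below 60 CPM in each pooled class.

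T-cell-like cells of libraries 1 and 2 repeated the order of these libraries with a larger step. Ifi27l2a, their leading member, was at 1705 CPM in library 1, 3231 CPM in library 2 and 363 CPM in the 23 cells of library 3. Isg15 was at 265 CPM in library 1 and 780 CPM in library 2, a ratio of 2.95 (2.78 to 3.12). The share of all members was 0.457% in library 1 and 0.846% in library 2, a ratio of 1.85 (1.83 to 1.88). Of 47 members with enough UMIs, 21 were at least 2-fold higher in library 2, where 2.44% of 10260 genes were, and none was 2-fold lower, where 2.44% were. The largest ratios were those of Ifi44 (4.74, 2.56 to 9.58), Usp18 (3.22) and Isg15, while Ifi27 (1.04, 0.962 to 1.12), Samd9l (1.18) and Ifitm3 (1.1997) were nearer to level. Library 2 held the highest level of 47 of 48 members among the 3 libraries, and the share of all genes that did so is not reported here.

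NK-cell-like cells were lower than T-cell-like cells and had the same order, at 0.235% in library 1 and 0.382% in library 2, a ratio of 1.62 (1.53 to 1.72). Of 40 members with enough UMIs, 13 were at least 2-fold higher in library 2, where 3.39% of genes were, among them Isg15 (217 and 487 CPM), Ifi44, Rtp4 and Xaf1, and none was 2-fold lower (background 5.32%). In neutrophil-like cells the share was 1.27% in 227 cells of library 1, 0.977% in 67 cells of library 2 and 0.578% in 22 cells of library 3. None of 35 members was 2-fold higher in library 2 than in library 1 (background 10.5%), and 4 were 2-fold lower (background 6.66%): Ifi27l2a, Zbp1, Xaf1 and Ifi207. Ifi27l2a alone fell from 3658 to 1062 CPM, while Isg15 (680 and 809 CPM) and Slfn2 (1741 and 1887 CPM) had overlapping intervals. The median log2 ratio of the 35 members was 0.02, against 0.01 over all genes compared. Of the 48 members, 25 had their highest level in library 2 and 18 in library 1, with no share of all genes to set beside these counts. In monocyte/dendritic-like cells, Ifitm3 was at 3495 CPM in library 1 and 3973 CPM in library 2.

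Border and vascular cells were read mainly in library 3, the library with the lowest microglial level. Border macrophage-like cells there had 819 CPM of Ifitm3, 654 CPM of Bst2 and 613 CPM of Ifi207, against 35.6, 152 and 24.9 CPM in microglia-like cells of that library. Isg15, at 95.9 CPM, and Ifit1, at 120.5 CPM, were instead lower than the 556 and 622 CPM of the microglia-like cells. Within library 3, the 2 macrophage classes thus differed in the levels of these members, some higher in each class. Endothelial-like cells of library 3 had 2395 CPM of Ifitm3, 348 CPM of Ifi27 and 327 CPM of Slfn5. In the 20 endothelial-like cells of library 2, Ifitm3 was at 2102 CPM (1880 to 2342) and Slfn5 at 276 CPM (200.02 to 372), and the intervals of Slfn5 overlapped with those of library 3.

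Choroid plexus-like cells, an epithelium that makes cerebrospinal fluid, had a lower share in library 2 than in library 1, at 0.249% against 0.473% and a ratio of 0.527 (0.508 to 0.547). Ifi27 stood at 2370 and 1503 CPM, Bst2 at 735 and 346 CPM, and Ifi27l2a at 661 and 106 CPM in libraries 1 and 2. All 3 were lower in library 2, in contrast to microglia-like and T-cell-like cells. Of 18 members with enough UMIs, 4 were at least 2-fold lower (background 1.26%), Ifi27l2a, Ifitm3, Bst2 and Rtp4, and 1 was higher (background 8.61%), Ifit3 at 3.04 (1.09 to 10.5).

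Oligodendrocyte-like cells had low levels that followed the libraries. The share was 0.109% in library 1, 0.146% in library 2 and 0.0355% in library 3 (2107, 3374 and 3554 cells). These summed ratios of 3.07 and 4.11 over library 3 are close to the 3.096 and 4.19 of microglia-like cells. The single members were not alike, with median log2 ratios of 2.77 and 3.94, against 1.89 and 2.33 in microglia-like cells. Over all genes tested, the medians were -0.02 and -0.01, against -0.57 and -0.60 in microglia-like cells. In oligodendrocyte-like cells, members near 0 in library 3 entered these medians through the other library. Of 39 members with at least 20 UMIs in libraries 1 and 3 together, 35 were at least 2-fold higher in library 1 (background 5.95%), and of 43 in libraries 2 and 3 together, 38 were higher in library 2 (background 7.2%). None was 2-fold lower (backgrounds 3.25% and 3.32%). Several members were near 0 in library 3 and could enter the count only through the other library, so these counts are a description. Library 2 over library 1 gave 14 of 44 higher (background 1.77%) and none lower (background 1.11%). Ifi27l2a was at 246, 379 and 8.05 CPM, Isg15 at 22.3, 77.4 and 3.42 CPM and Bst2 at 50.4, 78.2 and 3.54 CPM in libraries 1, 2 and 3. Xaf1 kept 120, 151 and 90.0 CPM, Ifi27 375, 312 and 162 CPM, and Znfx1 33.7, 31.8 and 35.9 CPM. These 3 genes were read in all libraries, and Znfx1 had overlapping intervals throughout.

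RNA freed from broken microglia can be counted in other droplets, so C1qa, C1qb and C1qc, which microglia and other macrophages make and which no gate used, served as a tracer. In oligodendrocyte-like cells the tracer stood at 1.63%, 2.22% and 0.538% of its microglial level in libraries 1, 2 and 3. Carried at that rate, microglial RNA would give 12.7%, 17.5% and 4.16% of the member UMIs read there. The level was above the tracer's for 43, 45 and 34 of the members. Isg15 was close to it in library 1, at 22.3 CPM measured and 19.2 CPM from the tracer. In library 2 Isg15 was above it, at 77.4 and 49.5 CPM. In library 3 Isg15 was at 3.42 and 2.99 CPM, where the interval included the tracer's level. Xaf1 and Ifi27l2a were far above it, with 120 CPM against 0.922 CPM and 246 CPM against 16.4 CPM in library 1. The tracer covers RNA from microglia alone, and RNA from other leukocytes, such as the Ifi27l2a of T-cell-like cells, was not tested.

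Over the summed members, oligodendrocyte precursor-like cells stepped from library 1 to library 2 by a ratio of 1.84 (1.74 to 1.94). Their share was 0.179% in library 1, 0.328% in library 2 and 0.0527% in library 3 (207, 137 and 66 cells). The summed ratio was close to the 1.85 of T-cell-like cells, but the single members did not repeat that step. Their median log2 ratio was 1.56 over 29 members, against 0.96 over 47 members in T-cell-like cells. Over all genes tested, the medians were 0.05 and -0.0006. In the precursor-like cells, Isg15 was at 26.9, 236 and 8.69 CPM, a ratio of 8.77 (6.24 to 12.6) for library 2 over library 1. Of 29 members with enough UMIs, 21 were at least 2-fold higher in library 2 (background 2.76%), among them Rsad2 (5.72), Ifitm3 (5.10) and Ifit3 (3.72), and none was 2-fold lower (background 2.04%). Slfn8, with 22 UMIs in library 2 and 4 in library 1, entered mainly through library 2, so these counts are a description. Ifi27, the leading member of these cells, was instead at 986, 829 and 330 CPM in libraries 1, 2 and 3. It was lower in library 2 than in library 1 by a ratio of 0.841 (0.766 to 0.922). The tracer stood for 7.04%, 8.91% and 4.70% of the member UMIs of these cells.

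In neuroblast-like cells the share was 0.0476%, 0.0748% and 0.0135% in libraries 1, 2 and 3 (559, 755 and 678 cells). At least 2-fold higher than in library 3 were 16 of 22 members with enough UMIs in library 1 (background 3.07%) and 24 of 28 in library 2 (background 3.49%), and none was 2-fold lower (backgrounds 5.18% and 4.41%). Library 2 over library 1 gave 13 of 33 higher (background 1.46%) and 1, Trim30a, lower (background 1.23%). With at most 3 UMIs in library 3 for 4 of the 22 and 7 of the 28 members, which entered through the other library, these counts are a description. The tracer stood for 30.4%, 37.2% and 9.14% of the member UMIs, and the level was above it for 25, 31 and 23 members. Isg15 was not above it in any of the libraries, at 17.7 CPM measured and 20.1 CPM from the tracer in library 1, 53.7 and 54.0 CPM in library 2, and 2.35 and 2.49 CPM in library 3. Ifi27 was, with 193, 196 and 54.4 CPM against 1.63, 2.74 and 0.539 CPM.

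**Figure D5:**
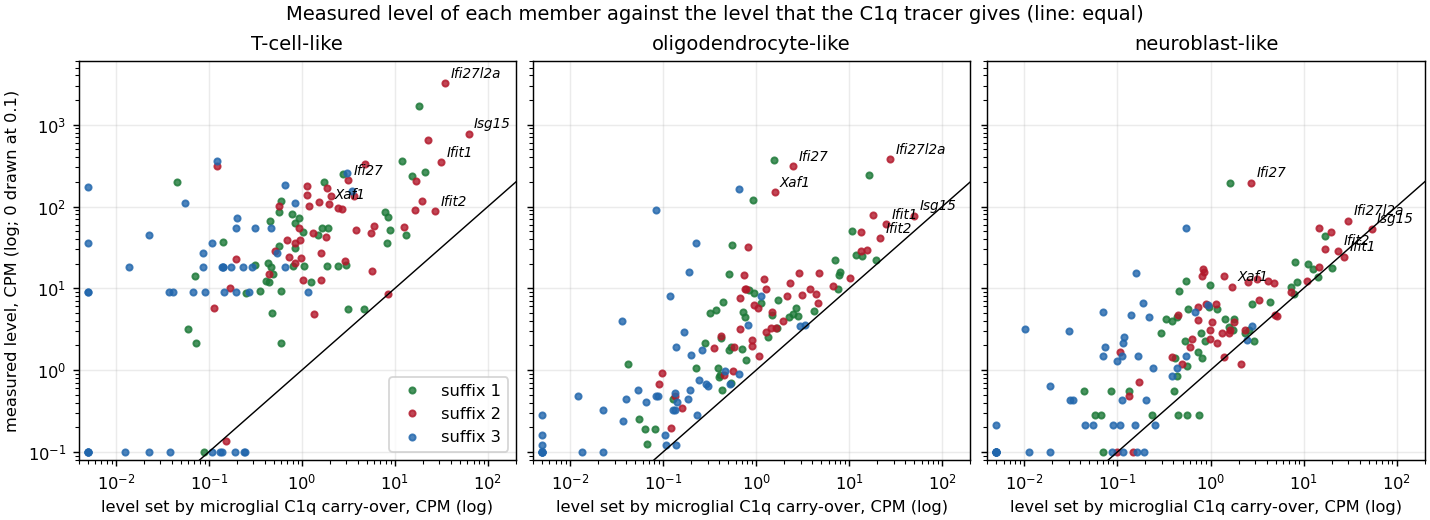
Measured level of each member (CPM, log axis, 0 drawn at 0.1) against the level that microglial RNA would give if carried over like C1qa, C1qb and C1qc (CPM, log axis), in T-cell-like, oligodendrocyte-like and neuroblast-like cells of each library; the line marks equal levels and names mark library 2. Isg15 lies on the line in neuroblast-like cells (53.7 and 54.0 CPM), while Ifi27 lies above it in all 3 classes.

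Astrocyte-like and neuron-like cells gave few member UMIs. Astrocyte-like cells numbered 57, 86 and 136 in libraries 1, 2 and 3, and 0.155%, 0.107% and 0.0517% of their UMIs were in members. The tracer stood for 16.8%, 46.9% and 4.01% of these, and the level was above the tracer's for 21 of 32, 9 of 39 and 19 of 28 members detected in libraries 1, 2 and 3. Ifi27 was at 354, 156 and 135 CPM there, and Isg15, at 17.4, 63.1 and 2.96 CPM, was under the tracer's level in every library. Of 8 members with enough UMIs in libraries 1 and 2, 1 was at least 2-fold higher in library 2 (background 10.9%) and 3 were lower (background 4.91%). Against library 3, 3 of 4 members were higher in library 1 (background 8.11%) and 3 of 7 in library 2 (background 8.32%), and none was lower (backgrounds 12.8% and 8.17%). Isg15 and Ifi27l2a had 2 and 0 UMIs in library 3 and entered through library 2, so these counts are a description. In neuron-like cells, the tracer stood for 48.4% and 27.8% of the member UMIs in libraries 1 and 2, and 6 and 14 members were above it.

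Some members share the ends of their messengers, where 3′ reads fall. Of the 100-base stretches in the last 500 bases, 57.9% in Ifi211 also occur in other genes (Ifi205 and Mndal), 57.6% in Ifi209 (Ifi214) and 40.9% in Oas1a (Oas1g). Phf11b shared 18.2%, Oas1g 11.7%, Phf11d 7.57%, Slfn8 7.09%, Ifi213 5.24% and Ifit3 4.24%, so the split of reads between these 9 genes and their relatives is uncertain. Ifi203 and Ifi211 overlap Mndal on the same strand, and Irf9 overlaps Rnf31. Dtx3l and Parp9 overlap on opposite strands.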

How the data were processed

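The data were 10x Genomics Chromium 3′ v3 libraries of dissociated mouse brain, 1 per condition. The deposited values are whole-number UMI counts per gene and barcode in 1 matrix, which the authors made with Cell Ranger 3.1.0 and STAR, thinning the reads of deeper libraries to a like depth. The submitters' processing notes name mm10 and Seurat 3.1.1 as well. The deposited counts are not normalized per cell, and barcodes under 1000 UMIs (2862) or over 30% mitochondrial (1544) were removed here. Thinning the reads lowers the counts of deeper libraries and leaves shares unchanged apart from sampling.

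A class needed at least 2 distinct markers and 4 marker UMIs (3 and 8 for oligodendrocyte-like, neutrophil-like and border macrophage-like cells, 3 and 15 for microglia-like cells). Border macrophage-like took precedence over microglia-like, T or NK over monocyte/dendritic, and endothelial and mural cells were split by a 3-fold excess of marker UMIs. Cells that passed the gates of several classes, as doublets would, were left out, and no doublet caller was run. UMIs were summed over the cells of a class and library, with exact Poisson 95% intervals for levels, exact binomial 95% (Clopper-Pearson) intervals for the share of cells, and exact conditional intervals for ratios. With 1 library per condition there was no test and no p-value. Genes with at least 20 UMIs in both groups together were compared, and a count under 3 was set to 3 UMIs when ratios were set against the 2-fold limit. The gates and ratios were checked on 2400 simulated cells of 4 classes, of which at least 94.5% per class were given their own class. With 4 classes, the simulation could not check the gates of the other classes.

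The list of members, the marker lists and the pathway genes were chosen with earlier results of these data known. Named are all members in the figures, and in the text the 10 with the most UMIs, the 3 leading and the 3 with the highest fold over the other cells in each class (10 CPM added to both), the leaders of each family, and pathway genes read in 10% or more of the cells of any class, not all of which are reported here. Members that stood out between libraries were named after their values were seen. Promoter windows came from RefSeq (GRCm38.p6) and coordinates from GENCODE vM21. The alternatives tried were a mitochondrial limit of 10%, upper limits on UMIs and genes, stricter gates, thinning, a mean over cells, leaving out members, and leaving out each library, with the IFIT levels without library 3 added after seeing the data. Python 3.11.15, NumPy 2.4.6, pandas 2.3.3, SciPy 1.17.1 and Matplotlib 3.10.9 were used.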

Additional observations from a re-analysis of the deposited data

How the results depend on the processing

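The order of the 14 classes by their pooled share was identical with a mitochondrial limit of 10%, with upper limits on UMIs and genes, with stricter gates, with each cell thinned to 1000 UMIs, as a mean over cells, without close paralogs, and without the 200 barcodes whose sequence libraries share. It changed when a library, the 5 leading members or Ifi27l2a were left out. Leaving out Ifi27l2a and leaving out shared barcodes were chosen after seeing the data. In microglia-like cells the share of 0.936% became 0.924% with upper limits on UMIs and genes, 0.919% with stricter gates, 0.816% thinned, 0.814% as a mean over cells, 0.456% without the 5 leading members, 0.807% without close paralogs, 0.836% without Ifi27l2a, and 0.975%, 0.674% and 1.04% without libraries 1, 2 and 3. In T-cell-like cells 0.673% became 0.693%, 0.662%, 0.749%, 0.743%, 0.272%, 0.594% and 0.418% under the same settings in that order, and 0.836% and 0.452% without libraries 1 and 2. In oligodendrocyte-like cells 0.0916% became 0.0925%, 0.0962%, 0.0890%, 0.0884%, 0.0600%, 0.0872% and 0.0722%, and 0.0856%, 0.0641% and 0.130% without libraries 1, 2 and 3. Of the libraries, the second moved the level of both immune classes most. Without Ifi27l2a, T-cell-like cells fell from the fourth to the sixth class. Without library 1, neutrophil-like cells fell from rank 1 to rank 3, at 0.848%. The 18 members higher in microglia-like than in T-cell-like cells were 11, and the 8 lower ones 5, when close paralogs were left out, because fewer genes were counted. The other alternatives left these counts within 1.5-fold. No paired analysis was possible because each condition has 1 library and the result comes from no test. Depth limited the rarest members, such as Oas1g and Oas2, whose counts in library 3 were 3 UMIs or fewer in microglia-like cells.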

Other observations

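Cells outside the classes also carried the members. The 3089 cells that passed no gate had a median of 1723 UMIs, and 0.759% of their UMIs were in members, with 0.492%, 1.11% and 0.0800% in libraries 1, 2 and 3. In library 2 this was close to the 1.15% of microglia-like cells, and in library 3 it was below the 0.274% of that class. C1qa, C1qb and C1qc together stood at 7960, 12759 and 2461 CPM in the cells without a class in libraries 1, 2 and 3. Microglia-like cells held 25428, 28090 and 24720 CPM of them. The 2241 cells that passed several gates had a median of 12262 UMIs and 0.482% in members, with 0.480%, 0.734% and 0.239% in libraries 1, 2 and 3. Their C1q level was 10495, 14085 and 4725 CPM. The part of microglial RNA in the members read in either group was not tested.

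The 35 B-cell-like cells were too few to be described as a class, and 0.215% (0.192 to 0.240) of their UMIs were in members. Border macrophage-like cells were few in libraries 1 and 2, with 19 and 18 cells. They held 1.12% (1.07 to 1.17) and 1.27% (1.22 to 1.33) in members, against 0.447% in the 152 cells of library 3. As a mean over cells, libraries 1 and 2 gave 1.58% and 1.37%, outside these intervals, which leave out the spread between cells.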
